A study of Mus musculus with 4 samples.

Results

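The Id genes, Id1, Id2, Id3 and Id4, were examined in LβT2 cells, an established and clonal mouse line with gonadotrope features, by ATAC-seq, an assay in which a transposase cuts open chromatin. Their regions were all called peaks that the authors' annotation assigned to a member, together with all peaks within 50 kb of a member's start site. This gave 165 peaks in 91 merged regions, of 417506 peaks in 255101 merged regions over the 4 libraries. The rule uses names and positions and no measured level. Of the 91 regions, 4 lay within 1 kb of a member's start site and are called promoters here, and 87 were distal. The annotation named a member for 55 regions and another gene for 36.

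Cells were held in medium without serum overnight and then given vehicle or activin A at 1 nM for 6 h. There were 2 vehicle and 2 activin libraries, all from the same line, and no other perturbation is described. The library names in the labels carry a second word, veh, that the labels do not explain. The labels name the line LbT2 and the sample titles LbT2b, a form they do not explain. Nothing in the labels says that the 2 libraries of a group came from separate cultures, so p-values measure only the spread between these libraries.

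Id proteins have the helix-loop-helix fold but lack the basic stretch that contacts DNA. They pair with E proteins, such as those made from Tcf3, Tcf4 and Tcf12, and keep these and their tissue-restricted partners off DNA. Their genes are classical targets of bone morphogenetic proteins acting through Smad1 and Smad5, whereas activin acts mainly through Smad2 and Smad3. In gonadotrope cells Id proteins have been linked to the joint action of bone morphogenetic proteins and activin on Fshb, which encodes the specific subunit of follicle-stimulating hormone.

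High-quality autosomal reads numbered 172146474 to 224226184 per library and leave out duplicates and poorly mapped reads. The enrichment of reads at start sites was 2.72 and 2.48 under vehicle and 3.12 and 3.04 under activin, so it separated the treatments. Of the high-quality reads, 6.93% and 11.1% lay in peaks under vehicle and 8.73% and 7.27% under activin. How far this enrichment bears on values that are not centred was not tested. Vehicle library 2 stood apart, with 178358 called peaks against 70692 to 85112 in the others, and it supplied 44 of the 60 Id regions that had a peak in 1 library alone (67.4% of all merged regions, 60 of 91 Id regions). A peak in all 4 libraries was found at 17 of the 91 (11.7% of all merged regions). Of 9 gonadotrope markers 6 had a peak within 1 kb of the start site in all 4 libraries (Cga, Lhb, Gnrhr, Nr5a1, Gata2 and Egr1), while Fshb had it in 0. Of 13 markers of other cells, 0 had such a peak in all 4 libraries. Open chromatin is not expression, and no RNA was measured in these files.

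The promoter letters are shown because 3 of the 4 promoters can be read directly against the called peaks. RefSeq (build GRCm38.p6) gave them for Id2, Id3 and Id4. Each is the stretch of 250 bases that ends at the base before the RefSeq start, written 5′ to 3′ on the gene's own strand. Id2 lies at chr12:25096093-25096342 on the minus strand, Id3 at chr4:136143572-136143821 on the plus strand and Id4 at chr13:48260866-48261115 on the plus strand. Capitals mark GGCGCC, a GC-rich site that Smad1 and Smad5 can bind, CAGAC, the short Smad box, TGACG, a short cyclic AMP response element, and CCAAT, each on either strand. In Id3 the TGACG and 1 of the CAGAC matches share 2 letters.
Id2: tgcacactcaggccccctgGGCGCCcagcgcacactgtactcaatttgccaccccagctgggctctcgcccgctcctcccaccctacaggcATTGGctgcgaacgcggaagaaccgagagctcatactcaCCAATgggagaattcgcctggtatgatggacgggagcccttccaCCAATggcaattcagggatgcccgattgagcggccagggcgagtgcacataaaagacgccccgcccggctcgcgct
Id3: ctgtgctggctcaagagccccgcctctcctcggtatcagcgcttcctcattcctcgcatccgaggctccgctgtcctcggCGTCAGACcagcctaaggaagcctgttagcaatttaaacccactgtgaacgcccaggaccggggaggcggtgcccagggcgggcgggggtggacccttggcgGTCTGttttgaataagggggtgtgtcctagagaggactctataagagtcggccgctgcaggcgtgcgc
Id4: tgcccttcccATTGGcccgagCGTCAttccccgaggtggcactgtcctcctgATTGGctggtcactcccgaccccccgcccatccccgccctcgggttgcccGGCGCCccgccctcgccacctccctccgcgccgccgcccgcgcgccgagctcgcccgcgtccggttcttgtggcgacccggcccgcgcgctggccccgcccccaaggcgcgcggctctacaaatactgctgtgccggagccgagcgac

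GGCGCC stood once in the Id2 stretch and once in that of Id4, and 9.59% of the 32851 RefSeq promoter stretches of this length held it. Id3 had 0 copies of GGCGCC and 2 of CAGAC, a motif held by 42.2% of stretches. TGACG, held by 17.8%, was found in Id3 and Id4. CCAAT, held by 33.8%, occurred 3 times in Id2, 2 times in Id4 and 0 times in Id3. The GC box GGGCGG, held by 32.7% of stretches, occurred once in Id2, 2 times in Id3, where the matches overlap each other, and 5 times in Id4. Id4 had the richest stretch, with 75.6% G and C and 35 CpG dinucleotides, against 62.8% and 18 in both Id2 and Id3 and medians of 52.4% and 6 over all stretches. The AP-1 motif TGANTCA, the TATA motif TATAAA, the E-box forms CACCTG and CACGTG, the full elements GTCTAGAC and TGACGTCA and the Egr motifs GCGGGGGCG and GCGTGGGCG had no match in the 3 stretches, and the general E-box CANNTG matched once, in Id2. The printed stretches of Id2 and Id4 were covered over all 250 bases by a called peak in every library. That of Id3 was covered over 160 and 199 bases under vehicle, and over 206 and 178 under activin.

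The 4 genes were first compared by how open their promoters were. The authors' −log10 q of a peak states how strongly it was called in its own library. Density here divides the high-quality reads in a library's own peak by the peak's length in kb and by the library's high-quality reads in units of 1000000 (reads per kb and 1000000 reads). By mean density the order was Id2, Id1, Id3 and Id4. This order depends on the called lengths, which were 661 to 823 bp at Id2 and 1371 to 1591 bp at Id4. By reads without division by length, Id1 was highest in each library, with 903 to 1699 reads. Id2 held 521 to 778, Id3 448 to 923 and Id4 414 to 895. In both activin libraries Id4 then stood above Id2, with 895 and 675 reads against 778 and 612.

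Id2 (ENSMUSG00000020644) encodes a member known for roles in lymphoid cells, mammary epithelium and circadian timing. Its promoter peak (chr12:25095781-25096697) had a −log10 q of 16.4 and 13.2 under vehicle against 26.4 and 15.5 under activin. Its density was 4.13 and 3.29 under vehicle and 5.25 and 4.18 under activin. This placed it between the 70.0th and the 81.8th percentile of promoter-annotated regions with a peak in all 4 libraries.

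Id1 (ENSMUSG00000042745) is the member whose response to bone morphogenetic proteins is best studied, through an element upstream of its start site. Its promoter region (chr2:152734548-152736922) had a density of 3.53 and 3.70 under vehicle and 3.65 and 3.33 under activin. Where a library had several peaks there, their reads and their lengths were each summed before the division. The strongest −log10 q in the region was 9.77 and 9.05 under vehicle and 13.7 and 9.91 under activin. Id1 and Id2 changed places in vehicle library 2, so their order did not exceed the spread between libraries.

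Id3 (ENSMUSG00000007872), a member often transcribed together with Id1, had a promoter region (chr4:136143616-136145112) with a −log10 q of 10.5 and 5.46 under vehicle and 9.21 and 7.63 under activin. Its density was 3.23 and 1.81 under vehicle and 2.83 and 2.78 under activin. The vehicle libraries were farther apart than the group means.

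Id4 (ENSMUSG00000021379), known for its part in neural and germ-line progenitors, had the lowest promoter density. Its promoter region (chr13:48260607-48262360) had a −log10 q of 4.89 and 5.93 under vehicle and 10.0 and 8.39 under activin. Its density was 1.75 and 1.72 under vehicle and 2.52 and 2.38 under activin, between the 15.1th and the 29.0th percentile of promoter-annotated regions. On either measure the activin libraries did not overlap the vehicle libraries and were the higher ones. Neither measure is centred, and 71.7% (−log10 q) and 62.4% (density) of the 13871 regions tested below lay above in the same way. The Id3 and Id4 ranges overlapped over the 4 libraries (1.81 to 3.23 for Id3 and 1.72 to 2.52 for Id4), although Id3 was higher in each library.

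**Figure D1:**
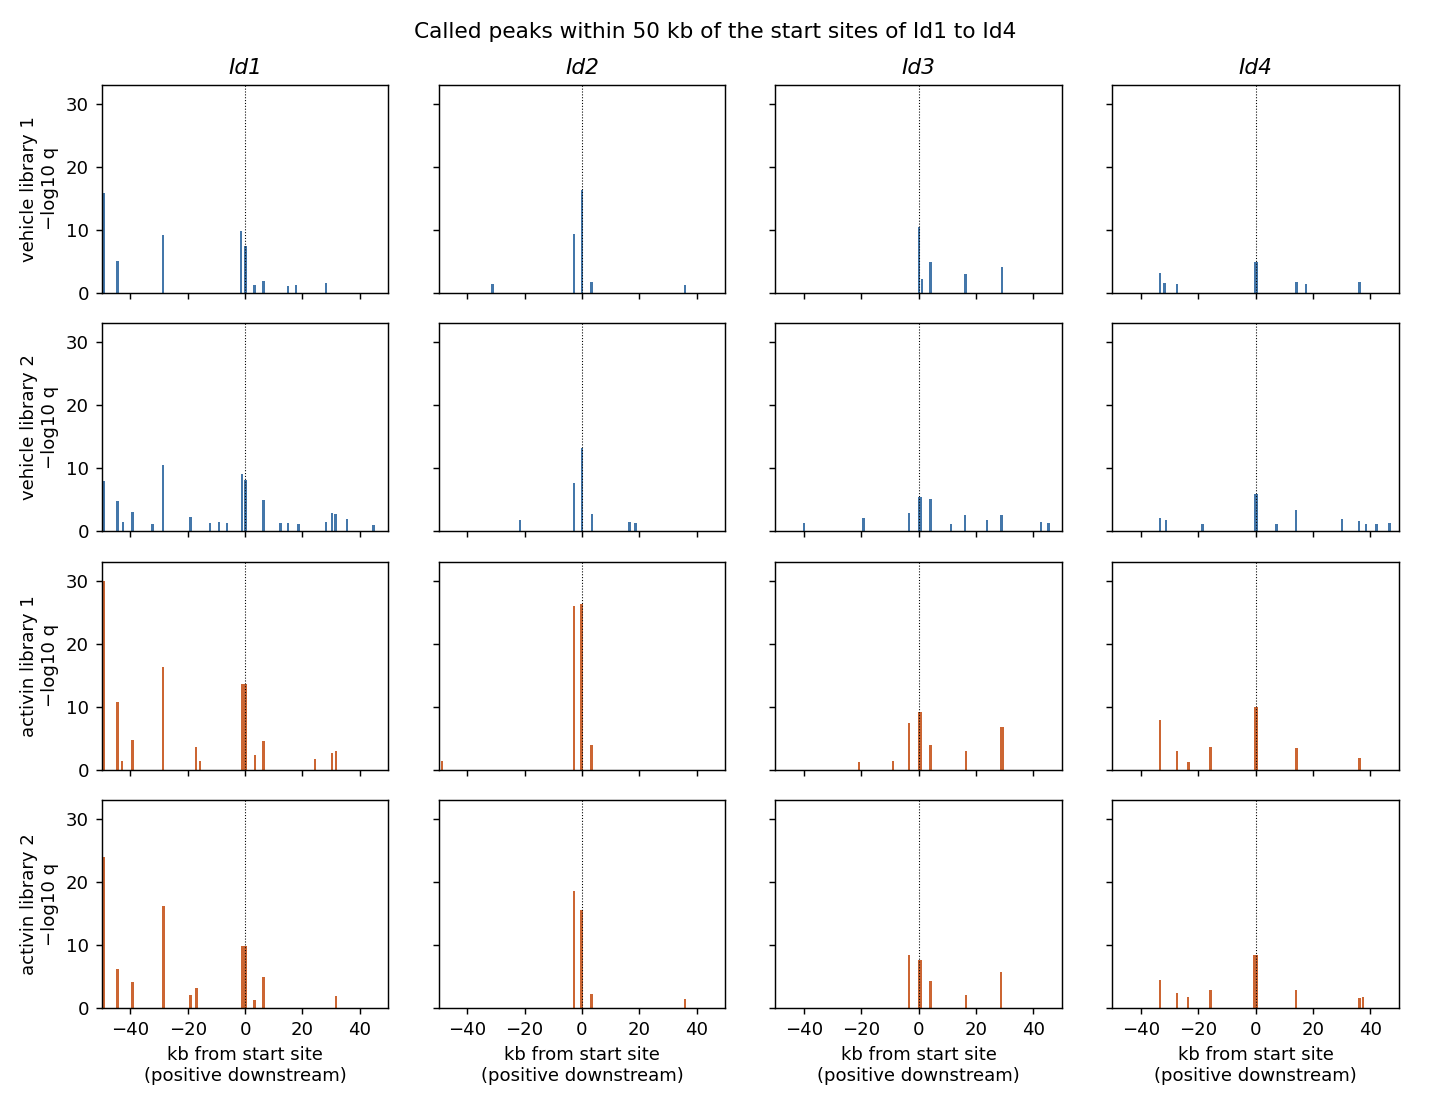
Called peaks within 50 kb of each start site, 1 column per gene and 1 row per library. The horizontal axis is the distance from the start site in kb along the direction of transcription, bar height is the authors' −log10 q, and narrow peaks are widened to be visible. The highest bars at Id2 stand at and just upstream of the start site, and the bar at the left edge of the Id1 panels, up to 29.9, is the Mcts2 promoter.

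The question of the design is whether 6 h of activin altered accessibility at these genes. The test used log2 of (reads + 1) per kb, centred on each library's median, over 13871 autosomal regions with exactly 1 peak in each library and a common part of at least 50% of their union. Of these, 0 passed an adjusted p of 0.05 (0% called; limma, p-values adjusted by Benjamini-Hochberg, the smallest being 0.184), and 1322 had an unadjusted p under 0.05. Of the 91 Id regions, 17 had a peak in all 4 libraries and 10 met the rule for the test; 0 of the 10 passed the adjusted threshold. All changes are relative to the median region of their own fit. Scaling by library depth, not by centring, shifted the median tested region by 0.27 (log2) in favour of activin.

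At an unadjusted p under 0.05, 2 of the 10 were higher under activin (3.62% of all tested regions) and 1 lower (5.91%). The change was above 0 in 7 of the 10 (48.9% of all). The median log2 change of the 10 tested Id regions was 0.13, against −0.00 over all tested regions. Not all of these carry the name of a member. All 4 tested regions near Id1 were annotated to other genes (Mcts2, Gm26841 and Gm14162). The tested region 14.2 kb downstream of Id4 was annotated to A330048O09Rik. In 4 of the 10, the 2 activin libraries were above the 2 vehicle libraries (20.9% of all tested regions did), and in 2 of the 10 both lay below (20.5%). By −log10 q, which is not centred, 6 of the 10 lay above (71.7% of all tested regions) and 1 below (2.34%). By uncentred density 7 lay above (62.4%) and 1 below (3.56%).

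Among the promoters, Id4 had 1.74 ± 0.0220 reads per kb and 1000000 reads under vehicle and 2.45 ± 0.0926 under activin (SD, n = 2). Its log2 change was 0.22 ± 0.13 (SE; limma adjusted p = 0.624), with a 95% interval from −0.08 to 0.52. It was 0.14 without vehicle library 1 and 0.49 with scaling by library depth (limma adjusted p = 0.0763). The Id2 promoter had 3.71 ± 0.595 under vehicle and 4.71 ± 0.757 under activin (SD, n = 2), and a log2 change of 0.07 ± 0.11 (adjusted p = 0.869, interval −0.19 to 0.33). After centring, the Id2 libraries of both treatments overlapped. The Id2 value was 0.15 without vehicle library 1, −0.00485 without vehicle library 2, −0.055 without activin library 1, 0.20 without activin library 2 and 0.35 with scaling by library depth.

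The Id1 and Id3 promoters did not meet the rule, because some libraries had 2 peaks there. They were fitted over all 28977 autosomal regions with a peak in all 4 libraries, with reads and lengths summed within a library, where 0 regions passed (0% called; limma adjusted p, smallest 0.300). That fit is centred on the medians of its own regions, so its changes are not on the same base as those of the test. In it the Id2 and Id4 promoters had changes of 0.18 and 0.33, against 0.07 and 0.22 in the test. The log2 change at Id1 was −0.22 ± 0.13 (adjusted p = 0.600, interval −0.54 to 0.10). It was −0.34 without vehicle library 1, −0.10 without vehicle library 2 and −0.05 with scaling by library depth. That at Id3 was 0.04 ± 0.22 (adjusted p = 0.962, interval −0.48 to 0.57). The Id3 value is smaller than the shift between the fits, so its sign depends on the base. Without vehicle library 2 the Id3 value was −0.29, without vehicle library 1 it was 0.37, and with scaling by library depth it was 0.21.

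The shape of the Id1 call differed between the treatments. Both vehicle libraries had a peak over the start site, annotated as exon 1 of 2, and a separate peak upstream. The upstream peak was centred 1.32 kb from the start site in vehicle library 1 (chr2:152734548-152735310, −log10 q 9.77, 443 reads) and 1.11 kb in vehicle library 2 (chr2:152734979-152735296, −log10 q 9.05, 351 reads). Between them lay 780 and 760 bp without a call. In both activin libraries 1 unbroken peak ran across this stretch, over 2075 bp with 1699 reads and over 1916 bp with 1134 reads. The activin intervals therefore include DNA that the vehicle intervals leave out. Without division by length the Id1 change was 0.25, the opposite sign (adjusted p = 0.660). Among the 28977 regions with a peak in all 4 libraries, 126 (0.435%) likewise had at least 2 peaks in both vehicle libraries and 1 in both activin libraries. The reverse was found in 57 (0.197%). This pattern was singled out after the Id1 calls were seen. The 28977 regions include the 13871 tested ones, which have 1 peak in each library and cannot show it, so the shares do not state how rare the pattern is among split calls. The Id3 promoter was split only in vehicle library 1, where 599 bp parted a start-site peak (−log10 q 10.5) from one 1.05 kb downstream (2.24).

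**Figure D2:**
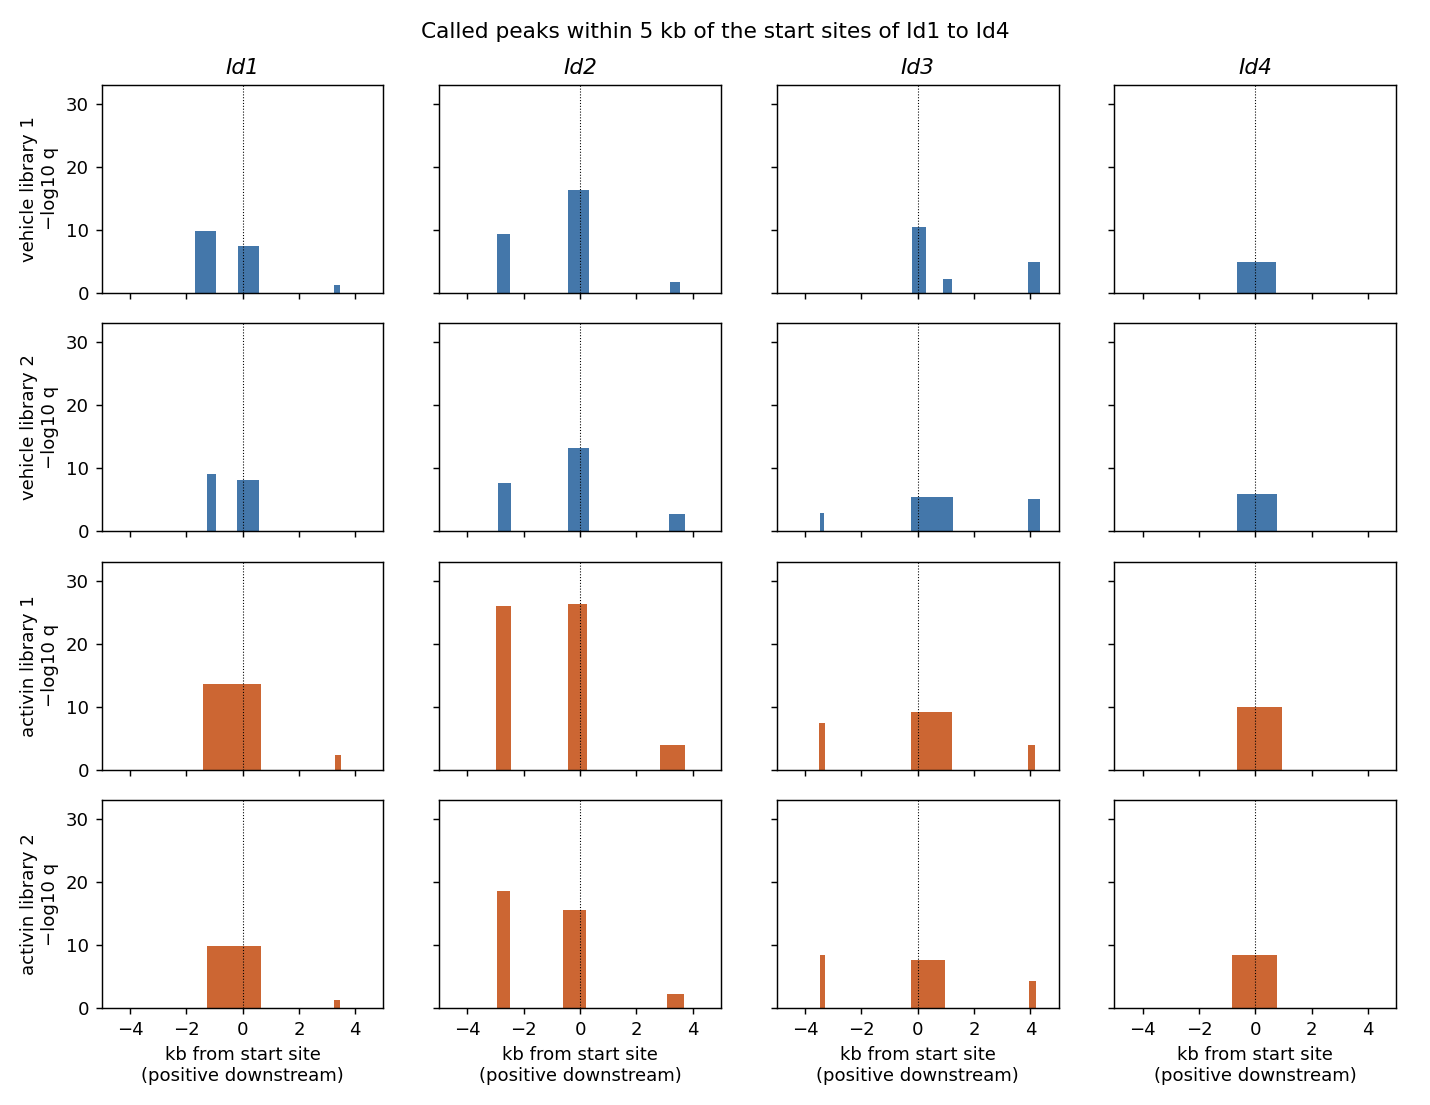
Called peaks within 5 kb of each start site, drawn to length, with distance in kb on the horizontal axis and −log10 q as height, 1 row per library. The 2 Id1 peaks of the vehicle libraries stand in place of the single wide peak of the activin libraries. The peak upstream of Id2 is taller in both activin libraries, as were 71.7% of all tested regions by −log10 q.

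Of the 28 distal regions of Id2, 1 had a −log10 q of at least 5 in any library. It lay 2.71 kb upstream (chr12:25098539-25099064, intergenic, annotated to Id2) and was called in all 4 libraries. It held 251 and 284 reads under vehicle and 561 and 354 under activin. Its −log10 q was 9.41 and 7.73 under vehicle and 26.0 and 18.7 under activin, and the authors' fold over background was 3.45 and 3.10 against 4.59 and 4.50. Both activin libraries were above both vehicle libraries on each of these measures, none of which is centred. By −log10 q, 71.7% of all tested regions lay above in the same way. After centring, the region was among the 20.9% of tested regions with both activin libraries above. The density was 2.98 ± 0.371 under vehicle and 4.49 ± 0.377 under activin (SD, n = 2). The log2 change relative to the median region was 0.32 ± 0.10 (SE; unadjusted p = 0.0104, limma adjusted p = 0.428, interval 0.10 to 0.54), which did not pass, and 3.20% of tested regions had a higher value. With scaling by library depth it was 0.59 (limma adjusted p = 0.0297), where 605 of all tested regions passed. The change was 0.27 to 0.37 when any single library was left out, and the intervals were alike, with a common part of 84.0% of their union. In activin library 2 this region was called more strongly than the Id2 promoter itself.

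The region 3.27 kb downstream, at the end of Id2, had a −log10 q of 1.70 and 2.79 under vehicle and 3.91 and 2.32 under activin. Its intervals were unlike, from 336 to 882 bp. No Id2 region was called in a single treatment pair only (0 and 0), and 24 of its 29 regions had a peak in 1 library alone.

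At Id4, the region 33.4 kb upstream (chr13:48227756-48228378) lay in intron 1 of 2 of ENSMUSG00000097622. It held 110 and 140 reads under vehicle and 224 and 216 under activin, and its −log10 q was 3.10 and 2.06 against 7.96 and 4.48. Density was 1.44 ± 0.0228 under vehicle and 2.12 ± 0.239 under activin (SD, n = 2), a log2 change of 0.27 ± 0.16 (adjusted p = 0.604). The change was 0.17 without vehicle library 1 and 0.55 with scaling by library depth (limma adjusted p = 0.0706). After centring, both activin libraries were above both vehicle libraries, as in 20.9% of all tested regions, and the test was not passed.

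A further Id4 region, 15.8 kb upstream (chr13:48245470-48245862, intron 1 of 1 of the same gene), was called in both activin libraries and in neither vehicle library, with a −log10 q of 3.53 and 2.96 and 114 and 78 reads. Another activin-only call lay 23.5 kb upstream (chr13:48237691-48238247), with a −log10 q of 1.16 and 1.71. The third lay 17.0 kb upstream of Id1 (chr2:152718988-152719480, intergenic), with a −log10 q of 3.64 and 3.25 and 267 and 193 reads. Calls in the vehicle pair only numbered 2, both downstream of Id1, at 14.9 kb (chr2:152750927-152751435) and 28.1 kb (chr2:152764160-152764609), with a −log10 q of at most 1.54. The 3 activin-only and 2 vehicle-only regions were 3.30% and 2.20% of Id regions, against 1.35% and 4.86% of all merged regions. In each of the 4 pairs that mix the treatments, 0 to 1 Id regions were called in that pair alone, at most 1.10% of Id regions, against 0.552% to 4.26% of all merged regions. Reads of vehicle libraries at activin-only calls are not given in the files, so the size of those differences is unknown.

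Some Id4 regions had few usable reads despite a call in every library. Of the 17 regions with a peak in all 4 libraries, 3 held under 50 high-quality reads in each, all at Id4, although the authors' fold there was 2.34 to 3.34. The region 14.2 kb downstream (chr13:48275387-48275854, annotated to A330048O09Rik) held 37 and 43 reads under vehicle and 45 and 13 under activin. Its log2 change was −1.27 ± 0.42 (unadjusted p = 0.0152, limma adjusted p = 0.435). It was −1.90 without activin library 1 and −0.64 without activin library 2, and its −log10 q did not show the same order, at 1.65 and 3.38 under vehicle and 3.43 and 2.86 under activin. The regions 111.6 kb upstream (19, 27, 3 and 11 reads, vehicle libraries first) and 36.1 kb downstream (2, 25, 0 and 1 reads) were below a useful depth, and no fold is given for the latter, whose activin libraries are under the floor of 3 reads.

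At Id3, the region 4.14 kb downstream (chr4:136147780-136148221, intergenic) had a density of 2.48 ± 0.312 under vehicle and 3.71 ± 0.203 under activin (SD, n = 2). Its log2 change was 0.31 ± 0.11 (unadjusted p = 0.0159, limma adjusted p = 0.435). The called intervals were 432 and 436 bp under vehicle but 242 and 257 bp under activin, and the reads were 201 and 218 against 209 and 163. With scaling by library depth the change was 0.58 (limma adjusted p = 0.0345), where 605 of all tested regions passed. Without division by length it was −0.64, so its direction depended on the intervals, and −log10 q was lower in both activin libraries (4.86 and 5.12 against 3.99 and 4.35). The region 16.2 kb downstream had a −log10 q of 2.10 to 3.05 over the 4 libraries.

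A region 3.39 kb upstream of Id3 (chr4:136140368-136140582), which the annotation gave to Gm26001, was singled out after its values were seen. It had no call in vehicle library 1, a −log10 q of 2.84 in vehicle library 2, and 7.46 and 8.46 in the activin libraries. Its density in the 3 libraries with a call was 3.52, 4.69 and 5.33. Because vehicle library 1 gave no value it was not tested. At a −log10 q of at least 5, it was 1 of 2 Id regions strong in the activin pair only, of 12 Id regions strong in any library (16.7%). Over all merged regions the share was 12.0%, 2536 of 21218, and 0 Id regions were strong in the vehicle pair only.

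**Figure D3:**
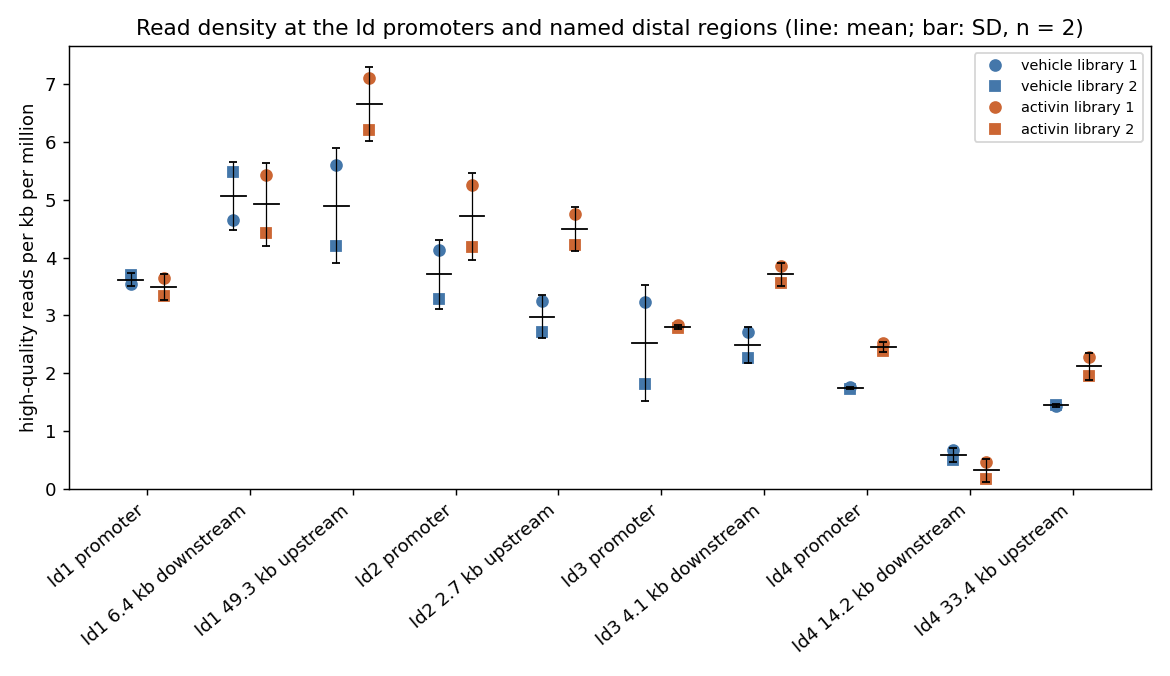
Density in reads per kb and 1000000 reads at the 4 promoters and the named distal regions, with 1 point per library, the mean as a line and the SD as a bar (n = 2). The activin points lie above the vehicle points at the Id1 region 49.3 kb upstream, at the Id2 promoter and 2.7 kb region, at the Id3 region 4.1 kb downstream and at the Id4 promoter and 33.4 kb region, and below them at the Id4 region 14.2 kb downstream. The values are not centred, and 62.4% of all tested regions lay above in the same way.

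The number of called peaks overlapped between the treatments. There were 31 and 70 Id peaks under vehicle against 34 and 30 under activin, with means of 50.5 ± 27.6 and 32.0 ± 2.83 (SD, n = 2; exact permutation p = 0.667, 2-sided, where the smallest possible is 0.333). The difference of −18.5 became 1.00 without vehicle library 2. Strong peaks, whose −log10 q reached 5, numbered 8 and 9 under vehicle and 11 and 10 under activin (exact permutation p = 0.333, n = 2). Over all peaks these numbers were 12377 and 12760 against 19819 and 15807, in the same order of treatments. Within 20 kb in place of 50 kb the difference was −14.5 (exact permutation p = 0.333). Of the 60 Id regions called in 1 library alone, 56 had a −log10 q under 2.

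**Figure D4:**
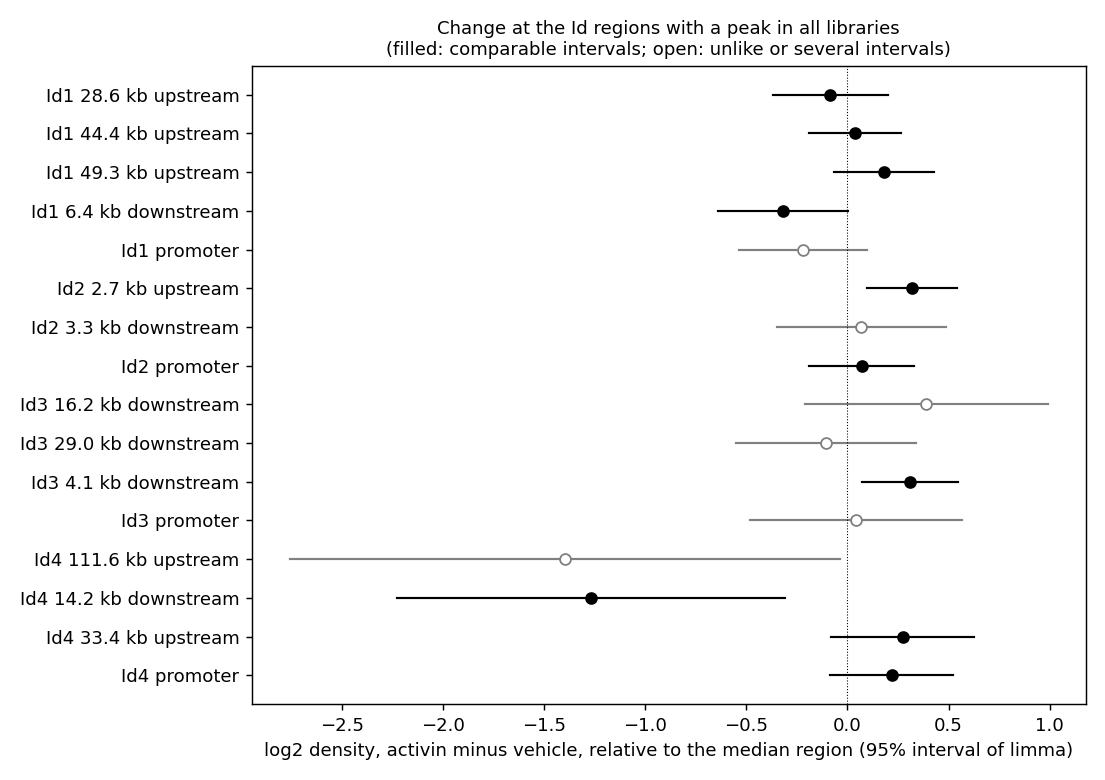
Log2 change in density, activin minus vehicle and relative to the median region, with the 95% interval of limma, at 16 of the 17 Id regions with a peak in all 4 libraries, leaving out the Id4 region 36.1 kb downstream. Filled points are the 10 tested regions with comparable intervals, and open points come from the fit over all regions with a peak in all libraries. Each fit is centred on the medians of its own regions, so filled and open points do not share the same base. The Id2 promoter, for example, was at 0.07 in the test and at 0.18 in the other fit. The widest intervals belong to the Id4 regions with few reads, and no region passed the adjusted threshold.

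The promoters most like the tested members over the 4 libraries were named by the smallest distance between centred log2 densities, among 6977 other promoter regions. For Id2 these were Tpd52l2 (distance 0.0936), Rel (0.0993) and Nans (0.101). For Id4 they were Fam46a (0.0726), Rsrc1 (0.0804) and Gm26407 (0.0876).

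The partners and regulators of Id proteins were read from lists of 53 genes, 25 of which had a tested region annotated as promoter, and 0 of the 25 passed the adjusted threshold. Their median log2 change was 0.06. In 12 of the 25 the activin libraries were above both vehicle libraries and in 4 below, against 21.7% and 17.9% of promoter-annotated tested regions. Among the E proteins that Id proteins bind, Tcf3 (a region annotated as promoter, but beyond 1 kb of the start site used), Tcf4 and Tcf12 had log2 changes of −0.12 ± 0.13, −0.08 ± 0.10 and 0.10 ± 0.18 (SE), with all libraries overlapping between treatments. Of 9 tested bHLH factors, Bhlhe40, a repressor tied to the circadian clock, had the highest value, 0.38 ± 0.11 (limma adjusted p = 0.410), and Msc the lowest, −0.21. The 9 tested regulators of Id transcription ranged from −0.11 at Skil, a Smad corepressor, to 0.14 at Klf4. As at Tcf3, the tested region of Smad3, 1 of these regulators, lay beyond 1 kb of the start site used. Neurog3, 1 of the tested bHLH factors, had a peak within 1 kb in 1 library only. Of the route's inhibitors and turnover factors 4 were tested, and in 4 of 4 the activin libraries were above. They were Bambi, a decoy receptor (0.34 ± 0.14, limma adjusted p = 0.503), Usp1, a deubiquitinase of Id proteins (0.27 ± 0.11, adjusted p = 0.507), Smurf2 (0.09) and Smad6 (0.05).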

How the data were processed

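Per the labels, 350000 LβT2 cells were seeded per well and 50000 entered each reaction. Bowtie2, MACS2 and HOMER and the builds GRCm38 and mm10 are named in the submitters' processing notes, without settings. For each library the authors deposited a list of broad peaks with a score, a fold enrichment ratio and −log10 p and q values, its HOMER annotation, and, per the file headers, an ataqv 1.3.1 report with read numbers per autosomal peak. Peaks were called per library, so a missing call is not a read number of 0. Start sites were taken from the deposited distances; those of Id3 and Id4 lay 42 and 310 bp inside the RefSeq start.

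Peaks overlapping by at least 1 bp were merged. Densities were tested with limma 3.58.1 in R 4.3.3 (trend, no block) after a pseudocount of 1 read, and the step was tested on simulated data. Python 3.11.15 did the rest. Named were each promoter, the distal tested region with the smallest p and that with the highest density per gene, up to 2 pair-restricted regions per gene and direction, and 3 like promoters. Members and lists were chosen with earlier results of these data known. Alternatives were other scalings, filters, windows, thresholds, a replicate block and leaving out each library. Same-numbered libraries did not deviate together (correlation −0.0252 over 13871 regions). Distal sequences were not analysed here.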

Additional observations from a re-analysis of the deposited data

How the results depend on the processing

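The count of tested regions past the adjusted threshold, 0, became 39 without division by length (5 higher, 34 lower), 605 with scaling to all high-quality reads (553 higher, 52 lower), 1 with a pseudocount of 10 reads and 4 with the replicate block, and ranged from 0 to 9 when each library was left out. With 1 library left in a group, that library is assumed to vary like the other group. The labels do not say what same-numbered libraries share, and under the block 0 of the named Id regions passed. The difference in Id peak number, −18.5, turned to 4 at a −log10 q of at least 2 and to 2 at 5, and ranged from −38 to 1 over the libraries left out. Activin-only Id regions, 3 in all, ranged from 5 to 10 with a library left out. Vehicle-only regions, 2 in all, numbered 0 at a −log10 q of at least 5 and 0 with 70692 peaks per library, and ranged from 2 to 46 with a library left out, which loosens the rule. Of 109 alternative values for the 10 named regions, 101 kept direction and side of the threshold. Reversed were the Id1 promoter (0.25), the Id2 promoter (−0.087) and the Id3 region 4.14 kb downstream (−0.64) without division by length; left-out libraries gave −0.055 to 0.20 for the Id2 promoter and −0.29 to 0.37 for the Id3 promoter. Scaling to all high-quality reads put the Id2 region 2.71 kb upstream (0.59, limma adjusted p = 0.0297) and the Id3 region 4.14 kb downstream (0.58, adjusted p = 0.0345) past the threshold. Other than the lengths and the shift of the median region, the cause was not tested. With 2 libraries a group, changes of the size seen at the Id genes were not resolved after adjustment.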

Other observations

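The Id windows also hold promoters of other genes. Near Id1, the distal region of highest mean density was the Mcts2 promoter 49.3 kb upstream (chr2:152686713-152687196), with a −log10 q of 15.8 and 8.04 under vehicle and 29.9 and 24.0 under activin. Its density was 4.90 ± 0.996 under vehicle and 6.66 ± 0.640 under activin (SD, n = 2), a log2 change of 0.18 ± 0.11 (limma adjusted p = 0.621). That change was 0.30 without vehicle library 1, 0.06 without vehicle library 2, 0.12 without activin library 1, 0.09 where the common part had to reach 80%, and 0.45 with scaling to all high-quality reads. A region 6.41 kb downstream of Id1 (chr2:152742579-152742751), annotated to Gm14162, had a density of 4.65 and 5.48 under vehicle and 5.43 and 4.42 under activin, and a change of −0.32 ± 0.14 (limma adjusted p = 0.526). It was −0.11 without vehicle library 2, −0.52 without vehicle library 1, −0.21 without activin library 2 and −0.04 with scaling to all high-quality reads. The regions 44.4 and 28.6 kb upstream of Id1 carried the gene names Mcts2 and Gm26841. Their annotated positions were the promoter and exon 12 of 12 of ENSMUSG00000019188. These regions had changes of 0.04 ± 0.10 and −0.08 ± 0.12 (limma adjusted p = 0.927 and 0.857), and the latter was 0.19 with scaling to all high-quality reads. Near Id3, exon 1 of 7 of E2f2, a cell cycle transcription factor gene, lay 29.0 kb downstream (chr4:136172245-136173506), with a −log10 q of 4.15 and 2.51 under vehicle and 6.75 and 5.74 under activin. Its density was 1.79 and 2.04 under vehicle and 2.00 in both activin libraries, over intervals of 522 to 1262 bp.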
